A study of Drosophila melanogaster with 24 samples.

Results

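The first legs and the proboscis of newly emerged fruit flies (Drosophila melanogaster) were compared, as the 16 of 24 samples whose titles name one of these body parts. Each body part had 8 samples, 4 from females and 4 from males. All flies were adults dissected within 1 to 2 hours of eclosion, when the adult leaves its pupal case. The first legs were taken from the distal end of the tibia outward, which includes the tarsus, and the proboscis was taken without further subdivision being stated. The remaining 8 samples were antennae, which entered the fit but are given here only beside a result. The sample descriptions give RIL 58 for 2 samples and RIL 89 for 2 samples in each combination of body part and sex, whereas only one isogenic line, WI89, is named for the series as a whole. What RIL stands for is not spelled out in the labels. Messenger RNA was amplified with T7 RNA polymerase before labelling in all samples.

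Both appendages are organs of taste. The proboscis ends in the labellum, a pair of pads bearing taste bristles that open onto the food canal, and it also holds the muscles and ducts used in feeding. The foreleg tarsus bears taste bristles of similar build, joints moved by long tendons, and claws, and in males it carries the sex comb and a larger set of taste bristles used in courtship. The 2 appendages are serial homologues: loss of the Hox gene proboscipedia turns the labial palps of the proboscis toward first legs. Differences between the samples can come from different cell types in unequal numbers or from different amounts of RNA per cell, and these cannot be told apart in samples of whole body parts.

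Each sample was 1 dye channel of a spotted array with 22575 spots in 105 rows and 215 columns. The gene column of the scanner files is empty, so spots are called by number and grid position, the labelled tissues could not be checked against marker genes, and no gene or sequence is given. Both body parts had 4 samples in Cy3 and 4 in Cy5. Cy3 samples were brighter: median signal above background was 102 to 117 units in first legs and 102 to 148 units in the proboscis, against 17.7 to 41.5 and 23.2 to 62.9 units in Cy5. The 24 samples fell into 12 arrays, inferred from quality marks that were identical at every spot within a pair. The arrays were divided by the correlation of their 2 channels into sets of 8 and 4, and 7 of the 8 leg samples but 4 of the 8 proboscis samples lay in the 8-array set. Body part and set are therefore partly confounded, and the dye effect was fitted separately in each set. Female proboscis samples were Cy3 in the 4-array set and Cy5 in the 8-array set, and male proboscis samples were the reverse. Sex in the proboscis thus coincided with the combination of dye and set. Only dye terms informed by the leg and antenna samples separate them. Nothing in the labels says that the replicates are separate flies or cultures. The p-values therefore reflect the spread among these particular samples, and that spread may be technical.

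The first question is which spots differ between the 2 taste appendages when both sexes are averaged. Most of the array gave closely similar levels in the first legs and the proboscis, and a small number of spots differed by a large factor. Levels here are normalised log2 signals after removal of the fitted dye, array set and RIL terms, so a difference of 1 is a doubling. Over all spots the correlation of the mean level in first legs with that in the proboscis was 0.933, a description across spots that share samples and background. The same correlation between males and females was 0.990 within first legs and 0.982 within the proboscis. At 20497 spots, or 90.8% of all, the mean levels of the appendages lay within 0.25 of each other. In Cy5, however, signal above background was below the background itself at 49.7% to 93.8% of spots. Similar levels at dim spots therefore do not show that the appendages were alike there. The 500 brightest spots of the first legs and the 500 brightest of the proboscis shared 382 spots, or 76.4% of each list. Of the brightest in first legs, 167 were called higher there, and of the brightest in the proboscis, 144 were called lower in first legs.

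A spot was called when limma's moderated test gave a Benjamini-Hochberg adjusted p under 0.05 over all 22575 spots. By this rule 2243 spots, or 9.94% of those tested, differed between first legs and proboscis. Of these, 1124 were higher in first legs (4.98%) and 1119 lower (4.96%). The even split did not hold in all settings: it was 815 higher and 1077 lower with 1 dye effect for all arrays, 1000 and 789 with sample quality weights, 422 and 244 in the Cy5 samples alone, 286 and 187 in RIL 58 alone, and 588 and 441 without the arrays that held both body parts. Most differences were small. Among the spots higher in first legs the median difference was 0.40 and the middle 50% ran between 0.23 and 0.74. Among the lower ones the median was -0.37 and the middle 50% ran between -0.61 and -0.23. Over all spots the median was -0.00, with the middle 50% between -0.05 and 0.05. Quantile normalisation gave all samples the same distribution of levels, so this median was largely set by the processing. How far it also set the even split was not tested.

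Large differences were less evenly split. Beyond 0.5 on the log2 scale, 449 called spots were higher in first legs and 384 lower. Beyond 1, where 1.30% of all spots lay, 190 were higher (0.842%) and 103 lower (0.456%). Beyond 2 the counts were 37 and 24, and beyond 3 they were 12 and 7. More spots were higher than lower beyond 1 in all 43 other settings tried, with 116 to 285 higher and 64 to 178 lower. Those settings refit the same samples or parts of them, so they are not independent tests. In females alone the balance beyond 1 turned round under some settings, as given below.

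**Figure D1:**
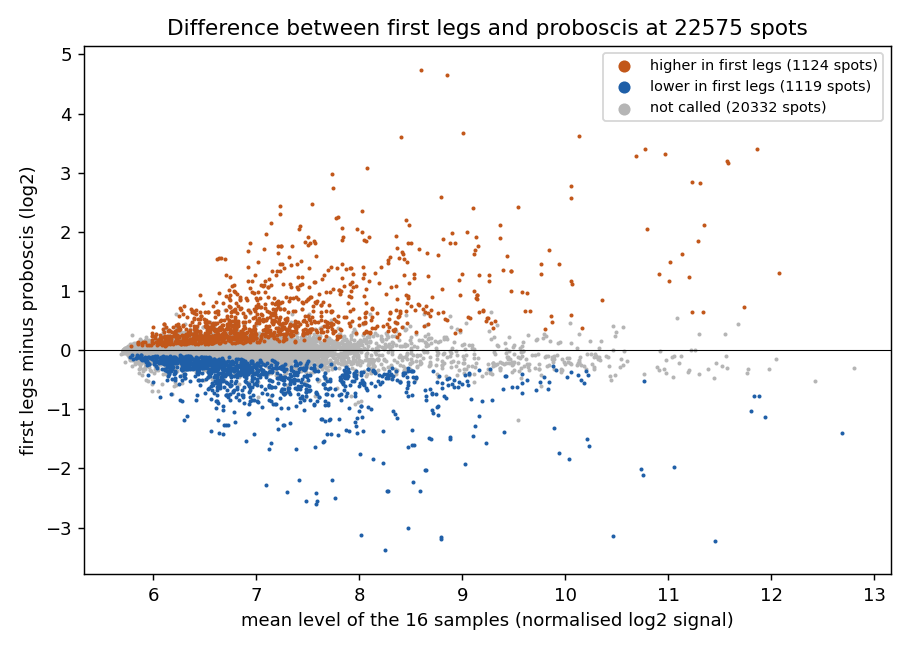
Difference between first legs and proboscis (log2, averaged over the sexes) against the mean level of the 16 samples (normalised log2 signal), 1 point per spot. Orange points were called higher in first legs (1124), blue points lower (1119), and grey points were not called; beyond 1, the orange points (190) outnumber the blue ones (103).

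A smaller number of spots had values that were fully apart, counted from the same values that made the calls. The 8 first leg values and the 8 proboscis values did not overlap at 942 spots, or 4.17% of all. Of the spots called higher in first legs, 557 (49.6%) had no overlap, and of those called lower, 367 (32.8%). The median SD between the 4 replicates of a group was 0.0848 in female and 0.0993 in male first legs, and 0.0769 in female and 0.0762 in male proboscis. Among the brightest 25% of spots it was 0.137 and 0.153 in first legs and 0.118 and 0.133 in the proboscis. At called spots it was 0.123 and 0.140 in female and male first legs and 0.112 and 0.121 in female and male proboscis.

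Calls depended on brightness. When spots were divided into 4 equal classes by mean level, the share called was 1.67% in the dimmest, then 4.52%, 9.06% and 24.5% in the brightest. In Cy5 the signal above background was below the background itself at 68.9% to 93.8% of spots in first legs and at 49.7% to 88.1% in the proboscis, while in Cy3 this held for at most 0.633% of spots in any of the 8 samples. Differences at dim spots were not well measured at this signal. Position on the array made little difference to the share called, which was 9.81% to 10.1% in 5 bands of 21 rows. Direction varied more with position. In rows 22 to 42, 4.34% of spots were called higher in first legs and 5.58% lower, and in rows 85 to 105, 5.71% and 4.39%.

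Many spots with a large difference were not at the dim end of the array in either appendage. Of the 190 spots more than 1 higher in first legs, 130 still had a proboscis level in the top 25% of levels and 60 (31.6%) lay below it. Their median level was 8.79 in first legs (7.25 to 13.63) and 7.22 in the proboscis (5.86 to 11.43). Of the 103 spots more than 1 lower in first legs, 70 still had a leg level in the top 25% and 33 (32.0%) lay below it. Their median level was 7.12 in first legs (5.70 to 12.06) and 8.84 in the proboscis (6.86 to 13.30). The top 25% began at 6.65, close to the median of 6.28 over all spots and samples, so a place in it does not show that a signal was above background.

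The leading spots were taken from called spots whose 8 leg and 8 proboscis values did not overlap, so the lack of overlap at them was set by the choice. The largest difference was at spot 8915, in row 42 and column 100. Its levels were 10.32, 11.40, 10.92 and 10.73 in female and 11.37, 10.83, 11.22 and 10.96 in male first legs. In the proboscis they were 6.60, 6.18, 6.09 and 6.24 in females and 6.23, 6.16, 6.22 and 6.16 in males. The leg samples spanned 10.32 to 11.40, and the proboscis values lay around 6.28, the median of all spots and samples. The difference was 4.74 ± 0.11 (SE; 95% interval 4.50 to 4.98; limma adjusted p = 1.12e-14). No fold is given, because the proboscis values lay so close to the background that the ratio depended on how it was corrected. The separation was visible before any normalisation: in Cy3 the signal above background was 1938, 2677, 2235 and 1921 units in first legs and 149, 133, 91.6 and 91.4 units in the proboscis. Female antennae had a mean of 6.30 ± 0.21 and male antennae one of 6.41 ± 0.18 (SD over 4 samples), within 0.25 of the proboscis means.

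Spot 16349, in row 77 and column 9, was the second largest on the side of the first legs. Its levels were 11.50, 11.27, 11.64 and 11.27 in female and 10.32, 11.18, 11.58 and 10.84 in male first legs, against 6.35, 6.02, 6.42 and 6.69 in female and 6.29, 6.46, 7.43 and 6.44 in male proboscis. A single male proboscis sample stood about 1 above the others. The difference was 4.64 ± 0.22 (95% interval 4.18 to 5.11; limma adjusted p = 8.06e-11). In Cy5 the proboscis signal above background was 46.9 to 57.9 units, below the background itself in each sample. The size of the difference therefore depended on how the background was corrected. Antennae lay between the appendages, at 8.46 ± 0.43 for female and 8.43 ± 0.15 for male samples. A quality mark lay on this spot on at least 1 array.

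On the side of the proboscis the largest difference was at spot 12188, in row 57 and column 148. Its levels were 6.53, 6.67, 6.80 and 6.08 in female and 6.78, 6.63, 6.16 and 6.62 in male first legs. In the proboscis they were 10.82, 10.58, 10.22 and 10.61 in females and 9.72, 9.46, 9.41 and 8.98 in males. Within the proboscis every female value was above every male value only after the fitted terms were removed. Before that, normalised levels overlapped, at 10.39, 10.39, 10.16 and 10.32 in females and 10.35, 10.24, 9.25 and 8.68 in males. Sex coincided with the combination of dye and set in these samples, so the order of the sexes depended on the fitted dye terms. The difference between first legs and proboscis was -3.38 ± 0.16 (95% interval -3.72 to -3.05; limma adjusted p = 8.06e-11). The leg values lay close to the background here. In females it was -4.03 ± 0.26 and in males -2.73 ± 0.22, and the test of that difference between the sexes gave 1.30 ± 0.35 with a limma adjusted p of 0.905. Antennae had a level of 13.16, higher than either appendage. The leg sample that shared an array with an antenna sample in the 4-array set had 224 units above background in Cy5, against 8.88, 28.1 and 18.7 units in the other 3 Cy5 leg samples; whether antennal signal entered that channel was not tested.

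Spot 6078, in row 29 and column 58, was bright in both appendages. Its levels were 9.65, 10.10, 9.80 and 9.70 in female and 9.98, 10.09, 9.31 and 9.82 in male first legs, against 13.25, 12.85, 12.91 and 12.56 in female and 13.27, 13.33, 13.24 and 13.34 in male proboscis. The male proboscis values spanned a narrow range, 13.24 to 13.34, only after the fitted terms were removed. Before that, their normalised levels ran from 12.73 to 13.15 and their signal above background from 2927 to 15205 units. The difference was -3.22 ± 0.18 (95% interval -3.59 to -2.85; limma adjusted p = 5.00e-10). In antennae the level was 7.92, below every leg and proboscis sample.

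**Figure D2:**
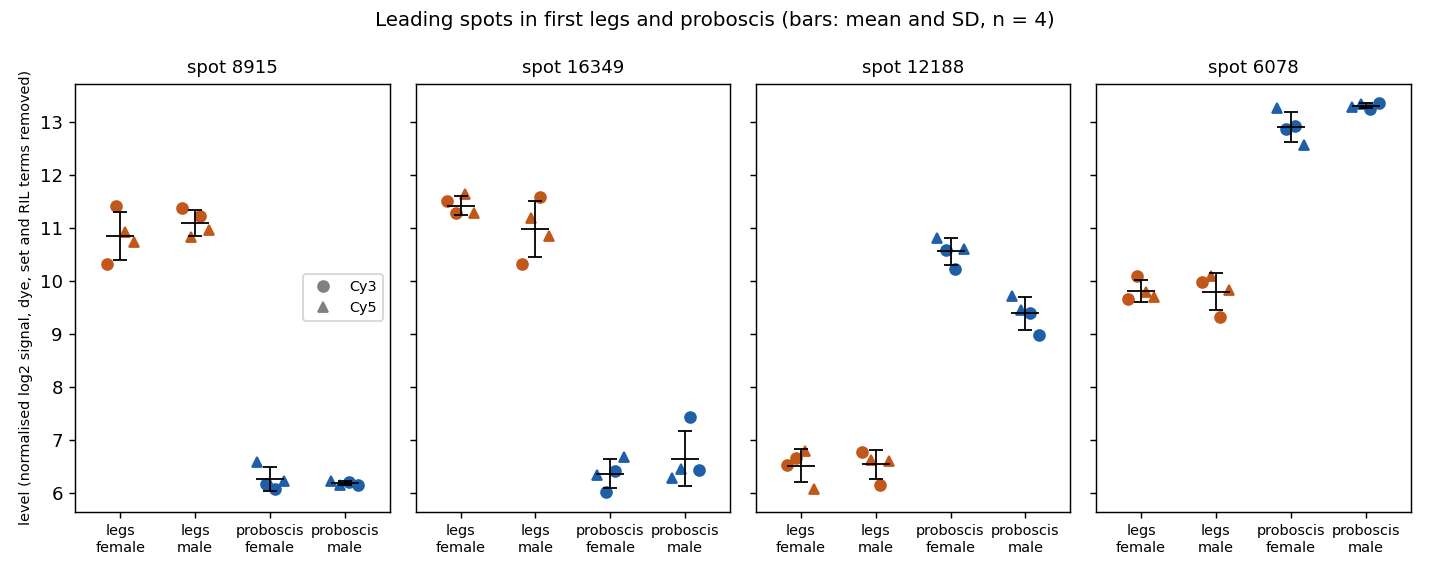
Levels (normalised log2 signal with fitted dye, set and RIL terms removed) of the 4 spots above in the 8 first leg samples (orange) and the 8 proboscis samples (blue), with Cy3 as circles and Cy5 as triangles, and the mean and SD of each group of 4 as bars. The panels hold spots chosen for the lack of overlap between legs and proboscis. At spot 12188 the female proboscis samples lie above the male ones, which did not hold before the fitted terms were removed.

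Across other settings these 4 spots kept their direction and their call. The difference ran over 4.03 to 5.63 at spot 8915, 4.06 to 5.30 at spot 16349, -4.10 to -2.81 at spot 12188 and -3.42 to -2.32 at spot 6078. The size of these differences therefore depended on the processing. The highest limma adjusted p among these settings was 0.00880, at spot 6078.

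In all, 19 spots (0.0842%) differed by more than 3. The 12 higher in first legs had differences of 3.08 to 4.74, leg levels of 9.63 to 13.63 and proboscis levels of 6.23 to 10.09. The 7 lower ones had differences of -3.38 to -3.01, leg levels of 6.40 to 9.81 and proboscis levels of 9.63 to 13.10. Leg and proboscis values did not overlap at any of the 19. For the spots higher in first legs, the antennal mean lay between the appendages at 7 of the 12, below both at 5 and above both at 0. For the 7 lower in first legs, it lay between the appendages at 4, below both at 2 and above both at 1.

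The second question is whether the appendages differ in the same way in each sex. Most called spots had the same direction in both. In females 1035 spots were called (4.58%), 543 higher in first legs (2.41%) and 492 lower (2.18%), and in males 1366 were called (6.05%), 781 higher (3.46%) and 585 lower (2.59%). With each sample scaled to 1 median in place of quantile normalisation, the female split was 173 higher and 285 lower. Beyond 1 the female counts were 204 higher and 132 lower (1.49% of spots together), and the male counts 172 and 92 (1.17%). The female balance turned round under some settings. Beyond 1 it was 132 higher and 136 lower with median scaling, and 114 higher and 154 lower without a dye term. Over all female calls it was 216 higher and 312 lower without a dye term, and 998 higher and 1389 lower with 1 dye effect for all arrays. Which side held more calls in females thus depended on the processing. Of the spots called in females, 1011 (97.7%) had the same direction in males and 741 (71.6%) were also called there. Of those called in males, 1323 (96.9%) had the same direction in females and 741 (54.2%) were also called. Over all spots 60.1% had the same direction in both sexes. Some female and male samples of the same body part shared an array, so the sexes were not measured independently. These were female leg replicate 1 with male leg replicate 2, and female leg replicate 4 with male leg replicate 3. Female proboscis replicate 2 likewise shared an array with male proboscis replicate 1. How much of the shared direction came from shared arrays was not tested.

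The test of the difference itself depended strongly on the dye terms. Among the proboscis samples, sex coincided with the combination of dye and set. The dye terms therefore set how much of a gap between male and female proboscis was read as sex. The sex by tissue interaction, the difference between first legs and proboscis in males minus that in females, was called at 4 of 22575 spots (0.0177%), with 1050 at an unadjusted p under 0.05. With 1 dye effect for all arrays and no term for the array set, it was called at 599 spots, 195 above 0 and 404 below. With the set term kept and 1 dye effect, it was called at 701. With a dye effect in each set and no set term, it was called at 5. Of the 4, 3 were above 0 (0.0133%) and 1 was below (0.00443%). Spots 18813 and 17374 were named as the largest in each direction, and spot 5784 was added after its values had been seen. The other called spot was a repeat of spot 18813.

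Spot 18813, in row 88 and column 108, was raised only in male first legs among the 4 groups. Its levels were 8.32, 8.31, 7.93 and 7.91 in male first legs and 6.34, 6.61, 6.52 and 6.43 in female first legs. In the proboscis they were 6.49, 6.40, 6.39 and 6.30 in males and 6.40, 6.47, 6.42 and 6.29 in females. The male leg values overlapped with no other group, and the other 3 groups overlapped with each other. The difference between first legs and proboscis was 1.71 ± 0.10 in males and 0.09 ± 0.12 in females, and the interaction was 1.62 ± 0.16 (limma adjusted p = 0.000174). The call was lost in 4 of 20 other settings, with adjusted p-values of 0.476 when samples were scaled to 1 median, 0.234 with cyclic loess, 0.833 with the array as a fixed block and 0.0588 when only the 16 leg and proboscis samples were fitted. The foreleg of the male differs from that of the female in its sex comb and taste bristles, but which transcript this spot measures is not given.

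Spot 17374, in row 81 and column 174, had the opposite pattern. Male first legs had levels of 6.72, 6.62, 7.45 and 7.58, and female first legs 8.39, 8.71, 9.08 and 9.14. Male proboscis had 6.56, 6.39, 6.55 and 6.94, and female proboscis 6.42, 6.56, 6.42 and 6.38. Female legs were above all other groups, while male legs overlapped with the male proboscis. The difference between first legs and proboscis was 0.55 ± 0.16 in males and 2.37 ± 0.19 in females, with an interaction of -1.82 ± 0.26 (limma adjusted p = 0.00787). The call was lost without female leg replicate 4 (adjusted p = 0.806), without female proboscis replicate 1 (adjusted p = 0.0584) and without male proboscis replicate 4 (adjusted p = 0.0682), and in 5 of 20 other settings.

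At spot 5784, in row 27 and column 194, female and male levels were apart in the proboscis. Its levels were 5.85 ± 0.08 in male and 5.85 ± 0.09 in female first legs, below the median of all values. In the proboscis they were 6.30, 6.34, 6.08 and 6.03 in males and 7.31, 7.14, 6.99 and 7.21 in females. Female proboscis values were above all values of the other groups. Before the fitted terms were removed, normalised levels ran from 6.82 to 7.41 in female and from 5.96 to 6.49 in male proboscis. Sex coincided with the combination of dye and set in these samples, so an effect of sex alone was not tested. The difference between first legs and proboscis was -0.34 ± 0.09 in males and -1.35 ± 0.10 in females, and the interaction was 1.01 ± 0.14 (limma adjusted p = 0.00787). This call was lost without female leg replicate 4, male leg replicate 3, female proboscis replicate 1 or male proboscis replicate 4, with adjusted p-values of 0.444, 0.103, 0.0642 and 0.0640. It was also lost in 7 of 21 other settings.

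**Figure D3:**
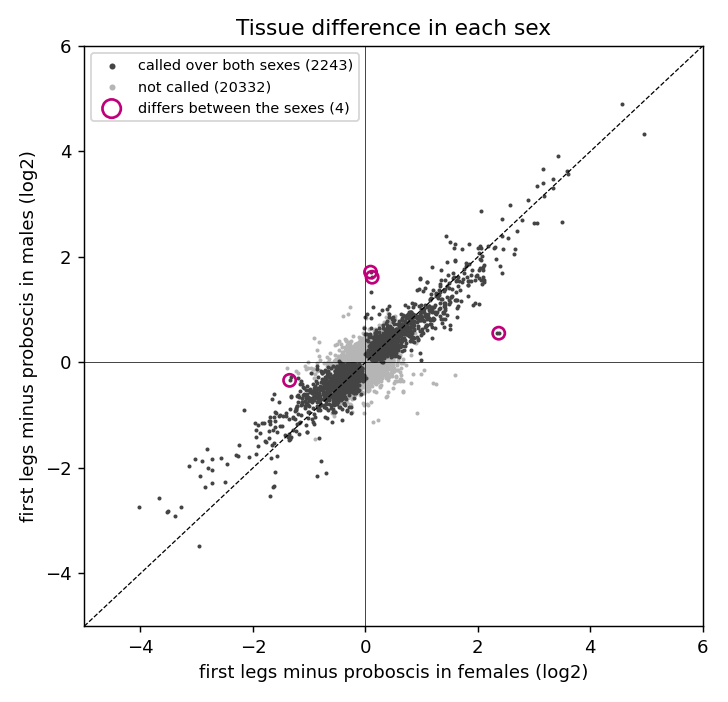
Difference between first legs and proboscis in males (vertical, log2) against that in females (horizontal, log2), 1 point per spot; dark points were called over both sexes (2243), ringed points are the 4 with a called difference between the sexes, and the dashed line marks equal values. Most dark points lie in the 2 quadrants of like sign, and the ringed pair near 0 in females and above 1.5 in males is spot 18813 and its repeat.

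The third question is how far the result rests on particular arrays, dyes or lines. A pair of arrays held both appendages at once: female leg replicate 2 with female proboscis replicate 1, and male leg replicate 4 with male proboscis replicate 4. Without those arrays, 1029 spots were called from 6 samples of each body part (4.56%). In the mean of the arrays left out, 1014 of them (98.5%) had the same direction, and 855 (83.1%) had it on each of the 2 arrays. Beyond 1, all 285 had the same direction in the mean and 277 (97.2%) on each array. Over all spots the same shares were 60.2% and 21.2%. The median size was 0.72 in the fit and 0.69 on the arrays for spots higher in first legs, and -0.63 and -0.57 for the lower ones.

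The named spots, whose selection had used these arrays, kept their direction on each of them. On the female and the male array the difference was 4.81 and 4.82 at spot 8915, and 4.31 and 4.77 at spot 16349. It was -4.00 and -2.37 at spot 12188, and -3.97 and -2.76 at spot 6078. No dye effect was removed from these values. The female array held the leg in Cy3 and the proboscis in Cy5, and the male array the reverse. A gap between the arrays therefore cannot be told apart as sex or dye. At spot 6078 the full fit had the opposite order, -2.96 in females and -3.48 in males. The fit without these arrays gave 4.75, 4.61, -3.51 and -3.02 at the 4 spots.

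Within the 8-array set alone, 1904 spots were called (8.43%). The 4-array set held 1 leg sample, so it allows no test. That sample was female, and the 2 proboscis samples of the same dye there were male, so body part and sex are confounded between them. Set against those 2, it had the same direction at 1687 of the 1904 (88.6%) and at 293 of the 296 beyond 1, against 56.4% of all spots. The difference at spot 8915 was 4.71 ± 0.14 in the 8-array set and 4.73 in the 4-array set. At spot 16349 it was 4.37 ± 0.22 and 5.15, and at spot 6078 it was -3.32 ± 0.18 and -3.53. At spot 12188 it was -3.41 ± 0.12 and -2.72. Each value for the 4-array set again came from a female leg against male proboscis.

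Fits to 1 dye or 1 line had 4 samples of each body part and made fewer calls. The Cy3 samples alone gave 329 calls (1.46%) and the Cy5 samples alone 666 (2.95%), of which 212 were shared, 64.4% of the Cy3 list and 31.8% of the Cy5 list. Of the Cy3 calls 88.4% had the same direction in Cy5, and of the Cy5 calls 98.3% had the same direction in Cy3, against 61.0% of all spots. The Cy3 and Cy5 samples were channels of the same arrays, so these fits were not independent. RIL 58 gave 473 calls (2.10%) and RIL 89 gave 619 (2.74%), with 319 shared, 67.4% and 51.5% of the lists. Direction was the same in the other line at 96.2% of the RIL 58 calls and 97.6% of the RIL 89 calls, against 55.6% of all spots. The line fits were not fully independent either. For example, male leg replicate 3 (RIL 58) and female leg replicate 4 (RIL 89) shared an array.

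Some spots appeared to be printed on the array more than once. In antennal levels alone, 31 stretches near the top of the grid (rows 2 to 22) matched stretches near the bottom (rows 81 to 102), spot by spot, which paired 1761 spots. That search was made after the data had been seen and used no leg or proboscis value. Across the pairs the difference between first legs and proboscis had a correlation of 0.962, as a description across spots measured on the same samples. In the first printing 195 were called (11.1%) and in the second 190 (10.8%). Both spots were called at 142 pairs, always in the same direction. The median gap between the members of a pair was 0.0406 over all pairs and 0.0420 over the 195 pairs called in the first printing. Both members were measured in the same samples, so the gap holds no spread between samples.

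Large differences were repeated closely. All 27 pairs that differed by more than 1 in the first printing were called in the second, with gaps of at most 0.279. As a consequence, counts of spots are not counts of transcripts. The 190 spots more than 1 higher in first legs included 16 complete pairs and the 103 lower ones 11, which leaves 174 and 92. Beyond 3 there was 1 pair on each side, which leaves 11 higher and 6 lower. The search found only stretches whose antennal levels matched closely, so repeats outside them may remain in all of these counts. The repeat of spot 18813 had an interaction of 1.495 ± 0.15 (limma adjusted p = 0.000174), and that of spot 17374 had -1.79 ± 0.30 with an adjusted p of 0.0608, which missed the threshold.

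**Figure D4:**
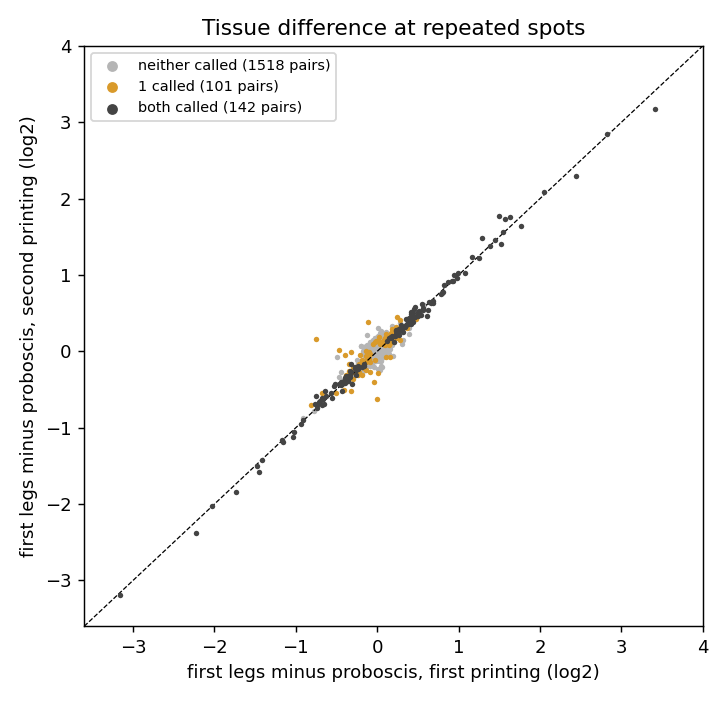
Difference between first legs and proboscis (log2) at the second printing (vertical) against the first (horizontal) for 1761 paired spots; dark points were called at both (142 pairs), orange points at 1 (101 pairs), and the dashed line marks equal values. Differences beyond 1 lie close to the line, with gaps of at most 0.279.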

How the data were processed

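Samples were grouped by the body part and sex in their titles, with dye from the label field and RIL number from the description. Each scanner file gives spot and background intensity of 1 dye channel, linear and not normalised, per the file headers. A further column is a quality score per spot, deposited without an explanation of its values. The deposited value table holds natural log values of net signal (mean signal less mean background), matching the scanner files to within 9e-08; its 166 blanks are values whose net signal is 0 or less. For the quantification program, the name is not given in the sources used.

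Background was corrected with normexp (offset 50), log2 was taken, and quantile normalisation was applied over all 24 samples. Every spot was kept and tested singly. A limma model held 6 group means, RIL number, array set, dye, and dye by set. The term for the set itself was added to the planned dye effect in each set, and the fit without it is among the other settings. The sets were divided at the widest gap in channel correlation (0.118, next 0.0842). Arrays, inferred from identical quality scores, entered as a random block (correlation 0.552, 14 residual degrees of freedom, variance trend). Calls had a two-sided Benjamini-Hochberg adjusted p under 0.05 over 22575 spots. Levels are normalised values with fitted dye, set and RIL terms removed.

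The body parts, the model with its separate dye effects, the lists and the rule for named spots were chosen with earlier results of these data known. The rule took the 2 largest differences in each direction among called spots whose 8 and 8 values did not overlap, and the largest interaction in each direction. The gene lists drawn up for taste, cuticle, muscle and other cell types could not be tested because the files pair no spot with a gene. Same-numbered replicates had correlations of deviations of -0.250 to 0.402 (median 0.0893, over 0.1 in 12 of 24 pairs), against a median of -0.0233 for other pairs. The closest sample of another group had the same number for 4 of 16 samples. These values do not settle whether the numbers mark pairs, and the main fit did not pair samples by number. Figures were drawn with matplotlib 3.10.9 in Python 3.11.15 (pandas 2.3.3). Fits were made in R 4.3.3 with statmod 1.5.0 and limma 3.58.1.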

Additional observations from a re-analysis of the deposited data

Results flagged for a closer look

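At spot 16349, male proboscis replicate 3 had a level of 7.43, while the nearest other male proboscis sample had 6.46. It was the only one of 32 groups of 4 values at the named spots in which 1 sample stood apart by this measure, which chance gives in about 1 of 20 groups.

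The difference between first legs and proboscis differed between the sexes by the interaction test at 4 spots. It was 1.62 larger in males than in females at spot 18813, and 1.495 at the repeat of that spot. It was 1.01 at spot 5784, where the level differed between male and female proboscis samples. Those samples also differed in the combination of dye and set. The interaction was -1.82 at spot 17374, where the level differed between male and female first legs. Leaving out any 1 of the 16 leg and proboscis samples did not end the call at spot 18813, for which the interaction ran over 1.56 to 1.83.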

How the results depend on the processing

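Against 2243 spots called over both sexes, 19 of 27 other settings gave counts within 1.5 times. The others gave 1290 with each sample scaled to 1 median, 893 without a dye term, 1026 with the array as a fixed block, 329 in Cy3, 666 in Cy5, 473 in RIL 58, 619 in RIL 89, and 1029 without the arrays that held both body parts. For females (1035) and males (1366), median scaling gave 458 and 635, no dye term 528 and 435, and the fixed array block 154 and 578; 1 dye effect for all arrays gave 2387 in females (2131 with the array set term kept), and no array block 638 in males. The interaction (4 calls) gave 1 with median scaling, 2 with loess within arrays, 2 with no array block, 599 with 1 dye effect and no set term, 701 with 1 dye effect and the set term kept, 0 with cyclic loess (limma; 529 at an unadjusted p under 0.05) and 0 with the fixed block (limma; 848 unadjusted). With the replicate number as a block, counts were 2251, 1007, 1167 and 5. Leaving out each sample in turn gave 1619 to 2439 over both sexes, 600 to 1140 in females (600 without female leg replicate 4), 803 to 1555 in males (803 without male proboscis replicate 4, 863 without male leg replicate 4) and 2 to 6 for the interaction (2 without female leg replicate 4, female proboscis replicate 1 or male proboscis replicate 4). With repeated spots averaged, the counts were 2077, 969, 1268 and 3. With a dye effect in each array set and no set term they were 2048, 885, 1201 and 5. These, and the fit that kept the set term with 1 dye effect, were added after the data were seen. No named difference changed sign in any setting, and the causes of these changes were not tested. Cy5 signal near background limits what could be measured at dim spots.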
